A study of Mus musculus with 18 samples.

Results

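C/EBPβ sites of uninduced pre-B cells were defined in the ChIP-seq library taken at 0 hpi (hours post-induction) with an antibody to C/EBPβ. Reads were shifted 75 bp from their 5′ end towards the fragment centre and counted in 200-bp bins of the mm9 autosomes. A bin was a member when it held 7 or more reads and at least 4 times the mean count of the 50 bins centred on it. Of 12361722 bins, 3233115 held a read, 1607 held 7 or more, and 1318 were members, which formed 1187 sites when adjacent bins were merged. Members were thus selected on the C/EBPβ reads at 0 hpi, and levels in that library are given as a description only. Comparisons between times and factors below use the 17 other libraries, the sequence or the annotation. The bins gained by C/EBPβ at 48 hpi, with which members are compared, were likewise set by at most 1 read in the 0 hpi library. A level is the number of reads in a bin per 10000000 reads of the library.

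The cells were C10 cells, a single line derived from mouse HAFTL pre-B cells. All samples carried the C/EBPαER-GFP transgene, a fusion of C/EBPα with the estrogen receptor, which moves into the nucleus when β-estradiol (β-Est) is added. The induced cells received β-Est together with IL-3 and CSF-1, and control cells received the ethanol solvent. Libraries of C/EBPα were available at 0, 10, 30 and 60 min and at 3, 12, 24 and 48 hpi, libraries of C/EBPβ and of PU.1 at 0, 3, 12, 24 and 48 hpi, with 1 library per factor and time point and no input library. No time point had a replicate, so no test between libraries was made, and the intervals given cover counting error only. The transgene was present at 0 hpi as well, and these libraries measure binding, so the identity of the cells was not checked against marker genes.

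C/EBPα and C/EBPβ are basic leucine zipper proteins that bind DNA as dimers and recognise related sequences, with TTGCGCAA, which reads the same on both strands, as a canonical site. Both factors drive myeloid genes, and C/EBPβ also pairs with ATF4, a factor of the amino acid and stress response, on composite sites. PU.1 is an Ets family factor present in B cells and, at higher levels, in macrophages, and EBF1 is a regulator of the B lineage.

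The following member bins are shown because they carry the sequence classes on which the results turn. Each is 200 bp of the mm9 plus strand in lower case, and capitals mark a match to the C/EBP octamer TTGCNNAA or the C/EBP-ATF composite TGATGNAA on either strand. The first 3 hold the palindromic octamer with a central CpG, the Abhd11 bin holds another octamer with a CpG, the Cebpb and Sfpi1 bins hold octamers without one, and the last 2 hold the composite.
Cdkl4, intron, chr17:80960201-80960400: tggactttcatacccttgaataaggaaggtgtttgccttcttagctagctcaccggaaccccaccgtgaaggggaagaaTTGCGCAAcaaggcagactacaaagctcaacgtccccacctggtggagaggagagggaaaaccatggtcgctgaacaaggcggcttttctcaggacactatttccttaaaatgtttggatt
Ctr9, intergenic, chr7:118167801-118168000: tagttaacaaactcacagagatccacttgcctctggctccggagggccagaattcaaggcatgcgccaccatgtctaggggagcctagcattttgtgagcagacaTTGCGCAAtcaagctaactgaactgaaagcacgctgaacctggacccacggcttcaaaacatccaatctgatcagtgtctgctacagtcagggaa
Ptgs2, promoter, chr1:151947001-151947200: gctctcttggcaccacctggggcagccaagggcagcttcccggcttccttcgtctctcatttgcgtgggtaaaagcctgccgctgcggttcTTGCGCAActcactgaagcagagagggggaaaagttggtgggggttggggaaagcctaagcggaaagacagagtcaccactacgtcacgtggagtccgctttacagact
Abhd11, promoter, chr5:135484801-135485000: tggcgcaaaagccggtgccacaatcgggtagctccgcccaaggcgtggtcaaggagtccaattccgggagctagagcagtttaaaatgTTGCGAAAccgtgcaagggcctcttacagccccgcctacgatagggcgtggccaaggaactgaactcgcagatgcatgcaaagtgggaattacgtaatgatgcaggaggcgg
Cebpb, intergenic, chr2:167585601-167585800: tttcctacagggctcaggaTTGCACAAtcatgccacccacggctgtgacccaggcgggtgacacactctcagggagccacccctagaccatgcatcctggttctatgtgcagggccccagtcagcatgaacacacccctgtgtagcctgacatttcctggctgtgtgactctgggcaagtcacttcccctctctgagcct
Sfpi1, intron, chr2:90923001-90923200: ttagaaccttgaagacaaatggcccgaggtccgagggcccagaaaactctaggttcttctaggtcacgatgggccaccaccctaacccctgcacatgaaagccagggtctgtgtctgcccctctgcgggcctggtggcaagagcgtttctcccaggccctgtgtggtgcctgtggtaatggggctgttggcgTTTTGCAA
Chac1, promoter, chr2:119176601-119176800: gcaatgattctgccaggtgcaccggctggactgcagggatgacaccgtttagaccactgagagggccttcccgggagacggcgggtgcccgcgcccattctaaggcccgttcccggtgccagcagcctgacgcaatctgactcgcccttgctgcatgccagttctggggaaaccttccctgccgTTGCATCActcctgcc
Sars, intron, chr3:108247001-108247200: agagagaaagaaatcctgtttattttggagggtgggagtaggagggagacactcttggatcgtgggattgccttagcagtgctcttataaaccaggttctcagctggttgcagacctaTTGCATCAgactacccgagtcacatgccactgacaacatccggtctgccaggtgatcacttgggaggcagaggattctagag

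Depth ranged from 2903580 to 24917810 reads per library after 1 read per position and strand was kept, and the C/EBPβ library at 0 hpi held 4283178. The libraries of C/EBPα at 10, 30 and 60 min had reads of 50 bases from another sequencer, so these times and the sequencer cannot be told apart. A few member bins stood apart in every factor. The bin with most reads at 0 hpi, 23480 bp upstream of Gm5614 (chr9:35112801-35113000), held 147 reads, and its level lay between 62.6 and 265 in the C/EBPα libraries, between 375 and 621 in the later C/EBPβ libraries and between 198 and 333 in the PU.1 libraries. Plus- and minus-strand reads of the other 17 libraries lay 32 bp apart there at their medians, whereas the median over all members was 137.5 bp. This strand distance is the minus-strand median less the plus-strand median, so reversed strands give negative values. It was above 0 at 1206 of 1318 members. At 237 members it was below 50 bp, a class that also holds reversed strands farther apart, such as -407 bp near Fgd2. Of these 237, 43 were enriched in 9 or more of the 17 other libraries and 146 in none. Among the 10 members with most reads at 0 hpi, 8 were in this class, including bins at Gm10800, Gm10801, Gm10717 and Gm10722. Since the strand distance was taken from the same 17 libraries, leaving out the 237 bins also takes out the 146 members enriched in none of them. No result therefore rests on that filter.

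Members with more reads at 0 hpi were enriched more often in the libraries that had no part in their choice. A bin was called enriched in another library when it held at least 4 times the mean of its 50 surrounding bins and a level no lower than that of 7 reads at 0 hpi, 16.3. Of 512 members with exactly 7 reads, 63.1% (95% Clopper-Pearson interval 58.7 to 67.3) were enriched in at least 1 other library. The share was 84.3% (80.4 to 87.7) of 407 members with 8 or 9 reads, 97.0% (94.1 to 98.7) of 265 members with 10 to 14 reads, and all of the 134 members with more. Just outside the rule, 1365 bins held 6 reads with 4 times their surroundings, and 42.3% (39.6 to 44.9) of them were enriched elsewhere. A C/EBP octamer was found in 21.1% (17.6 to 24.9) of the members with 7 reads and in 15% (13.2 to 17) of the bins with 6. It was found in 47.9% (41.8 to 54.1) of those with 10 to 14 reads and 60.2% (50.5 to 69.3) of those with 15 to 29. With 30 or more reads, 7 of 21 members had one. Of the 20 members with most reads at 0 hpi, 12 had a strand distance below 50 bp. On the other side of the rule, 108 members exceeded their surroundings 4 to 5 times, with a median C/EBPβ level at 48 hpi of 11.8, and 59 bins with 7 or more reads reached 3 to 4 times, with a median of 13.8. The weakest members are thus near the detection limit of this library, and 261 of 1318 members were enriched in no other library, as were 99.4% of all bins.

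**Figure D1:**
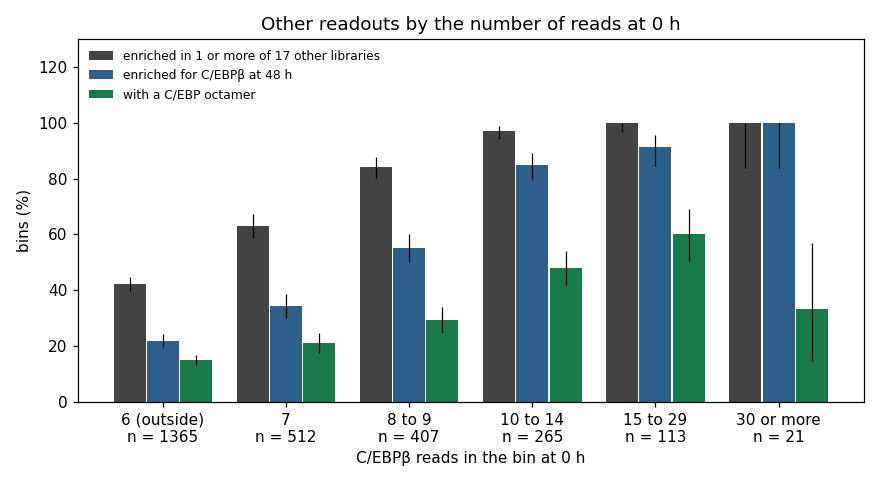
Percentage of bins that were enriched in 1 or more other libraries, enriched for C/EBPβ at 48 hpi, or that held a C/EBP octamer, by the number of C/EBPβ reads at 0 h (bars, with 95% Clopper-Pearson intervals; 6 reads lies outside the rule). The share enriched elsewhere climbs from 42.3% at 6 reads to 97.0% at 10 to 14 reads. The octamer share is 7 of 21 bins at 30 or more, but 12 of the 20 members with most reads had a strand distance below 50 bp.

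Members ranged from those enriched for C/EBPβ at every later time to those enriched at none. At 3 hpi, 655 of 1318 members (49.7%) were enriched for C/EBPβ, against 0.0426% of all bins. The count was 681 (51.7%, against 0.0546%) at 12 hpi, 704 (53.4%, against 0.0736%) at 24 hpi and 750 (56.9%, against 0.113%) at 48 hpi. In all 4 of these libraries 507 members (38.5%, interval 35.8 to 41.2, against 0.0181% of all bins) were enriched, and in none 442 (33.5%, 31 to 36.2, against 99.8% of all bins). Enriched in 1, 2 and 3 of them were 113, 119 and 137 members. The median level over members was 17.1 at 3 hpi (interval of the median 15.4 to 18.8), 17.2 at 12 hpi (13.8 to 20.7), 22.4 at 24 hpi (19.2 to 25.6) and 29.6 at 48 hpi (25.6 to 35.5), beside 18.7 at 0 hpi. The value depended on the rule, since the median at 48 hpi was 92.6 over members with 10 or more reads at 0 hpi and 65.0 over those with 8 times their surroundings. Members spread widely, since the 10th percentile at 48 hpi was 1.97 and the 90th was 144. Their summed reads were higher at 48 than at 3 hpi by 1.12 on the log2 scale (counting interval 1.09 to 1.14), and 926 of 1318 members were higher and 378 lower. This rise was not particular to members. Among bins with 10 or more reads in the 2 libraries together, 53.4% of members and 57.3% of all bins were at least 2-fold higher.

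**Figure D2:**
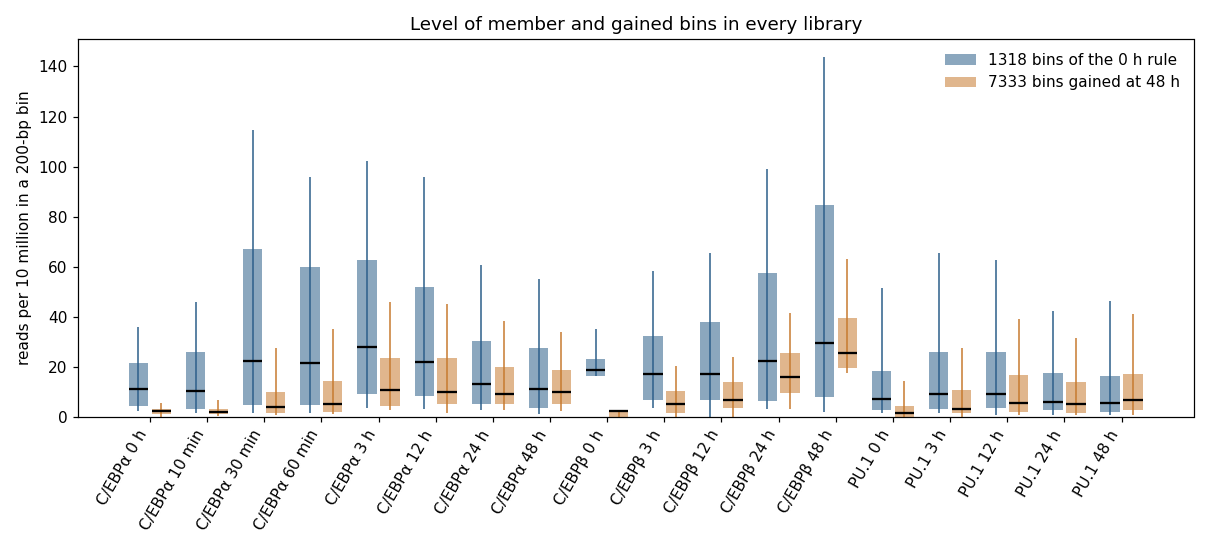
Reads per 10000000 in a 200-bp bin in each of the 18 libraries, for the 1318 members (blue) and for 7333 bins that C/EBPβ gained at 48 h (orange); boxes span the 25th to the 75th percentile, lines the 10th to the 90th, and black bars are medians. Members have their highest C/EBPα median at 3 h (27.9) and their highest C/EBPβ median at 48 h (29.6), and gained bins lie below them at every C/EBPα time point.

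C/EBPα was enriched at many of the same bins before induction. At 0 hpi 460 members (34.9%) were enriched for C/EBPα, against 0.00654% of all bins, and these were 56.9% of the 808 bins enriched in that library. The share depended on the rule, at 58.7% with 7 raw reads required in every library, against 52% at 48 hpi on that rule, and at 72.2% over members with 10 or more reads. After 10 min 491 members were enriched (37.3%, against 0.0197%), after 30 min 715 (54.2%, against 0.0861%) and after 60 min 719 (54.6%, against 0.103%). The largest count was 797 at 3 hpi (60.5%, against 0.11%). It was 731 at 12 hpi (55.5%, against 0.0869%), 541 at 24 hpi (41.0%, against 0.0529%) and 487 at 48 hpi (36.9%, against 0.041%). Median levels ran 11.3, 10.4, 22.3, 21.5, 27.9, 21.8, 13.2 and 11.3 over the same 8 time points. The level at 48 hpi was therefore about that at 0 hpi, while C/EBPβ at the same members was at its highest. Summed C/EBPα reads were higher at 3 than at 0 hpi by 1.35 (1.33 to 1.38, log2) and higher at 48 than at 0 hpi by 0.42 (0.39 to 0.45), the latter in 701 members with 607 lower. The share of members 2-fold higher at 3 than at 0 hpi was close to that of all tested bins, as given below. All 8 C/EBPα libraries were enriched at 237 members (18.0%, against 0.0026% of all bins) and none at 400 (30.3%, against 99.8%). Of the members enriched in no C/EBPα library, 65 were enriched in at least 1 later C/EBPβ library, as were 0.0636% of all bins.

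PU.1 was enriched at 335 members at 0 hpi (25.4%, against 0.213% of all bins), 412 at 3 hpi (31.3%, against 0.267%), 422 at 12 hpi (32.0%, against 0.338%), 333 at 24 hpi (25.3%, against 0.235%) and 299 at 48 hpi (22.7%, against 0.234%). Of the members, 804 (61.0%) were enriched in no PU.1 library (99.5% of all bins) and 220 (16.7%) in all 5 (0.111% of all bins). At the 335 members with PU.1 at 0 hpi the summed C/EBPα level at 48 hpi exceeded that at 0 hpi by 0.76 (0.71 to 0.81, log2), and 233 of them were higher. At the other 983 members the difference was 0.25 (0.21 to 0.28), with 468 higher and 505 lower. The share of members with C/EBPα above its 0 hpi level was thus larger among those with PU.1 at 0 hpi. The choice of members by 0 hpi reads enters this contrast, as described below. The share with PU.1 also differed between the octamer classes given below, so no conclusion is drawn and a cause was not tested. For C/EBPβ between 3 and 48 hpi the ratio of summed reads was 0.94 (0.89 to 0.98) at members with PU.1 and 1.20 (1.17 to 1.23) at members without, while the share of members that were higher was 71.6% and 69.8%. Where no later C/EBPβ library was enriched, 21.5% of members had PU.1 at 0 hpi, and 29.8% where all 4 were.

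Fold changes between single libraries were compared with those of all bins that held 10 or more reads in the 2 libraries together. From 3 to 48 hpi, C/EBPβ was at least 2-fold higher at 513 of 961 such members (53.4%, against 57.3% of all tested bins) and 2-fold lower at 87 (9.05%, against 10.2%). Both shares lay close to the background. From 0 to 3 hpi, C/EBPα was 2-fold higher at 633 of 1093 members (57.9%, against 59.9%), again close to the background. It was lower at 18 (1.65%, against 3.65%). From 3 to 48 hpi, C/EBPα was 2-fold lower at 555 of 1095 members (50.7%, against 45.1%) and higher at 26 (2.37%, against 10.9%). C/EBPα at 48 hpi was 2-fold higher than at 0 hpi at 253 of 957 members (26.4%, against 46%) and lower at 180 (18.8%, against 9.38%). Members were called higher less often, and lower more often, than all tested bins. However, members were chosen by C/EBPβ reads at 0 hpi and make up 56.9% of the bins enriched for C/EBPα at 0 hpi. Background bins could reach the read minimum through the 48 hpi library alone. The choice of members thus enters this comparison, and no conclusion is drawn from it. PU.1 was 2-fold higher at 48 than at 0 hpi at 109 of 727 members (15%, against 28.8%) and lower at 155 (21.3%, against 17.2%). Tested bins had to reach the read minimum in the same libraries that were compared, members included.

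The members' C/EBP octamers differed in kind from those at bins that C/EBPβ gained later, and bins enriched for C/EBPα at 0 hpi showed the same trait. Their share of the CpG palindrome was above that of all members and close to that of members with 10 or more reads. The octamer TTGCNNAA was present in 430 of 1318 members (32.6%, 30.1 to 35.2), in 35.7% (34.6 to 36.8) of 7332 sequenced bins that were enriched for C/EBPβ at 48 hpi with at most 1 read at 0 hpi, and in 9.28% of all bins. Members minus gained bins came to -3.06 percentage points, which turned to 14.9 for members with 10 or more reads and 11.7 for members with 8 times their surroundings. The palindrome TTGCGCAA was present in 90 members (6.83%, 5.53 to 8.33), in 95 of 7333 gained bins (1.30%, 1.05 to 1.58) and in 0.0162% of all bins. TTGCACAA, without a CpG, was present in 98 members (7.44%, 6.08 to 8.99), in 9.15% (8.50 to 9.83) of gained bins and in 0.613% of all bins. Intervals of members and gained bins did not overlap for the CpG palindrome, and they overlapped for TTGCACAA. The 808 bins enriched for C/EBPα at 0 hpi, of which 460 were members, held TTGCGCAA in 14% (11.7 to 16.6) and any TTGCGNAA in 23.3% (20.4 to 26.3), so the palindrome was not particular to the members.

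The same contrast was seen away from promoters and near them. Strong sites are given as a description only. Strong members were ranked by the 0 hpi reads that the rule used, and strong gained bins by their level at 48 hpi. More than 1000 bp from a transcription start site (TSS), TTGCGCAA was in 5.96% (4.59 to 7.59) of 1023 members and 1.25% (1.0 to 1.55) of 6702 gained bins. Within 1000 bp it was in 9.83% (6.68 to 13.8) of 295 members and 1.74% (0.873 to 3.10) of 631 gained bins. Members with 10 or more reads at 0 hpi held it in 14.3% (11 to 18.1) of cases. The 1969 gained bins with the highest levels at 48 hpi, 39.4 or more, held it in 2.03% (1.46 to 2.76), and TTGCACAA in 13.6% (12.1 to 15.2). Their median level of 55.2 lay below the 92.6 of those members. Any octamer with a central CpG, TTGCGNAA, was in 13.1% (11.3 to 15) of members and 5.30% (4.80 to 5.84) of gained bins. Counted the other way, 1941 autosomal bins hold TTGCGCAA, and 90 of them (4.64%, 3.74 to 5.67) were members and 95 (4.89%) were gained bins. Of the 73410 bins with TTGCACAA, 98 (0.133%) were members and 671 (0.914%) gained bins. Both sets thus took a larger share of the CpG palindromes than of TTGCACAA.

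**Figure D3:**
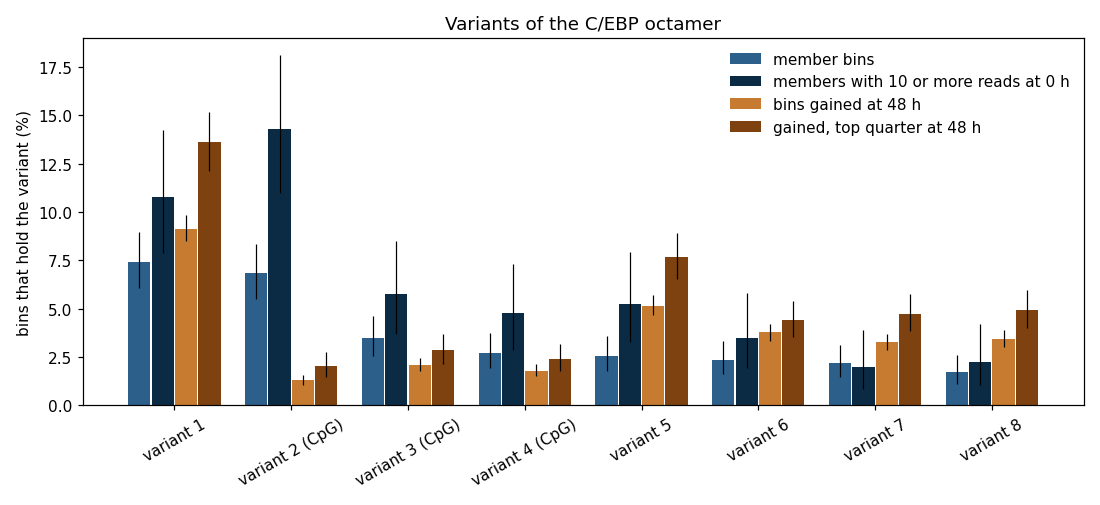
Percentage of bins that hold each of the 8 commonest C/EBP octamers of the members, with 95% Clopper-Pearson intervals, for all members, members with 10 or more reads at 0 h, bins gained at 48 h and the 1969 gained bins with the highest levels. Variants 1 to 8 are TTGCACAA, TTGCGCAA, TTGCGTAA, TTGCGAAA, TTGCTCAA, TTGCATAA, TTGCCCAA and TTGCAAAA, and variant 2 is in 6.83% of members and 1.30% of gained bins.

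Members with these octamers also differed in their time course. At the 90 members with TTGCGCAA, 84.4% were enriched for C/EBPα at 0 hpi, and the mean C/EBPα level was 39.0 at 0, 59.2 at 3 and 29.8 at 48 hpi. At the 98 members with TTGCACAA, 63.3% were enriched at 0 hpi and the mean levels were 23.7, 75.7 and 42.9. C/EBPα at 48 hpi was thus below its level at 0 hpi at the CpG palindrome, by a log2 ratio of -0.39 (-0.47 to -0.31), with 21 of 90 members higher. It was above it at TTGCACAA by 0.86 (0.78 to 0.94), with 63 of 98 higher. The choice of members by 0 hpi reads enters both ratios, and more of the members with TTGCGCAA were enriched for C/EBPα at 0 hpi. These ratios are therefore a description, and no conclusion is drawn from their difference. C/EBPβ rose from 3 to 48 hpi at both, by 1.65 (1.58 to 1.72) and 1.43 (1.36 to 1.51). At 48 hpi, 96.7% and 90.8% were enriched for C/EBPβ. PU.1 at 0 hpi was enriched at 12.2% of members with TTGCGCAA and 18.4% of those with TTGCACAA, and 27.4% of the 888 members without an octamer. The 888 were enriched for C/EBPβ at 48 hpi in 43.1% of cases and had a median level of 13.8 there.

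**Figure D4:**
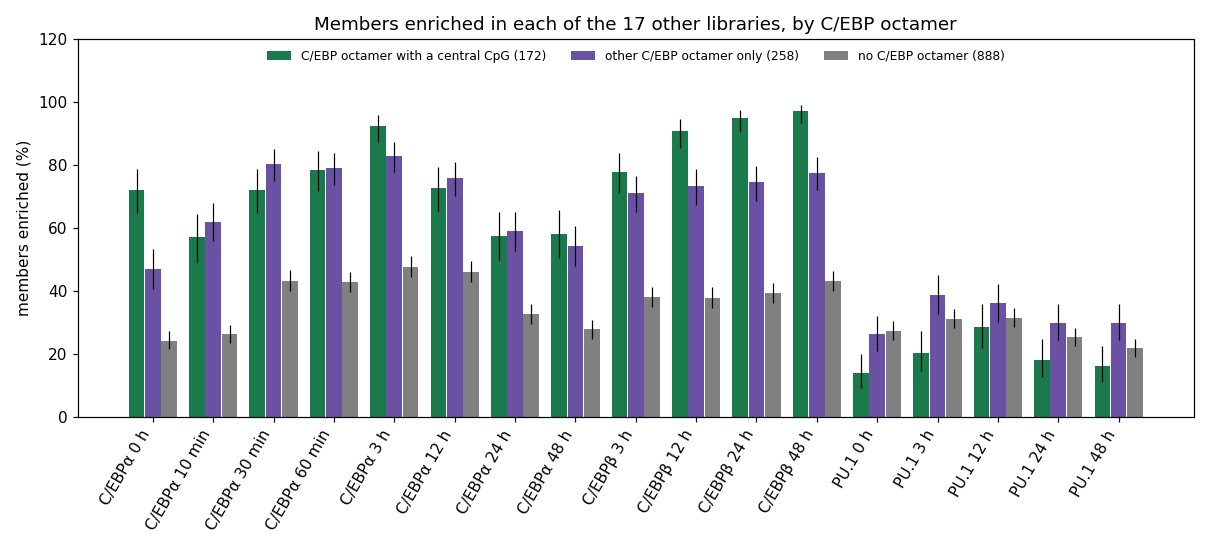
Percentage of members enriched in each of the 17 other libraries, with 95% Clopper-Pearson intervals, for 172 members with a C/EBP octamer that has a central CpG, 258 with another octamer only and 888 without one. For C/EBPβ at 48 h the shares are 97.1%, 77.5% and 43.1%, and for PU.1 at 0 h they are 14%, 26.4% and 27.4%.

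The EBF1 and AP-1 motifs set members apart from gained bins, in opposite directions. Intervals of members and gained bins overlapped for the PU.1 motif and the composite. Bins enriched for C/EBPα at 0 hpi are not compared here as a set, so these motif shares cannot be called particular to the members. The 460 members that were also enriched for C/EBPα at 0 hpi held the EBF1 motif in 9.35% (6.85 to 12.4) of cases. They held the AP-1 motif in 5.22% (3.37 to 7.66). The EBF1 motif TCCCNNGGG was present in 125 members (9.48%, 7.96 to 11.2), in 2.97% (2.60 to 3.39) of gained bins and in 1.87% of all bins. All bins with 49 to 52% G and C, close to the members' median of 50.5%, held it in 3.42% of cases. At members with the EBF1 motif the median C/EBPα level was 41.5 at 30 min and 7.54 at 48 hpi, and the median C/EBPβ level was 18.8 at 3 hpi and 15.8 at 48 hpi. Their summed C/EBPβ reads went the other way, higher at 48 than at 3 hpi by 0.77 (0.68 to 0.86, log2), with 70 members higher and 55 lower. Summed C/EBPα reads of these members were lower at 48 than at 3 hpi by a log2 ratio of -1.60 (-1.68 to -1.53), beside -0.93 (-0.95 to -0.91) over all members. The AP-1 motif TGANTCA was less frequent in members, at 7.13% (5.80 to 8.66), than in gained bins, at 15.2% (14.4 to 16), and all bins held it in 5.96%. The PU.1 motif GAGGAAGT was in 5.08% (3.96 to 6.41) of members, 6.34% (5.79 to 6.92) of gained bins and 1.20% of all bins. Of the 67 members with it, 80.6% were enriched for PU.1 at 0 hpi. The composite TGATGNAA was in 8.73% (7.26 to 10.4) of members, 10.1% (9.43 to 10.8) of gained bins and 3.65% of all bins. The cyclic AMP response element TGACGTCA was in 2 members.

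Members lay near promoters more often than gained bins did. Within 1000 bp of the TSS of a protein-coding gene were 295 members (22.4%, 20.2 to 24.7), 8.60% (7.97 to 9.27) of gained bins and 2.28% of all bins. The share was 29.7% (26.6 to 33.0) in the bins enriched for C/EBPα at 0 hpi and 19% (17 to 21.2) in bins with 6 reads just outside the rule, so it was not particular to the members. The median distance was 13766 bp for members and 58339 bp for all bins. By their centre, 512 members lay in introns, 665 between genes, 51 in coding exons and 80 in untranslated regions, and 10 in other exons. Among promoter members, 96 had a C/EBP octamer and 199 had none. The former were enriched for C/EBPβ at 48 hpi in 92.7% of cases with a median level of 101, and the latter in 47.2% with a median of 17.7. The corresponding values of distal members were 83.2% and 76.8 for 334 bins with an octamer, and 41.9% and 11.8 for 689 bins without.

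The Ctr9 bin lies 4565 bp upstream of the gene for a subunit of the PAF complex of RNA polymerase and holds TTGCGCAA. Its C/EBPβ level was 107 at 0 hpi, 133 at 3, 176 at 12, 250 at 24 and 290 at 48 hpi (exact Poisson interval 245 to 340). Its C/EBPα level was 109 at 0 hpi, 27.7 at 10 min, 32.3 at 30 min, 45 at 60 min, 111 at 3 hpi, 75.4 at 12, 48.8 at 24 and 40.2 at 48 hpi, and PU.1 stayed between 1.42 and 4.41. C/EBPα was therefore lower at 48 than at 0 hpi with intervals that did not overlap (27.5 to 56.8 and 88.7 to 133), while C/EBPβ was higher than at 3 hpi (105 to 167). The Ctr9 bin was named for its C/EBPβ reads at 0 hpi and its later C/EBPβ level, so its choice enters this pattern.

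The Cdkl4 bin, in an intron 2874 bp downstream of the TSS of a cyclin-dependent kinase-like gene, also holds the palindrome. C/EBPβ there was 135 at 0 hpi, 133 at 3, 238 at 12, 243 at 24 and 333 at 48 hpi, and C/EBPα was 115, 64.6, 109, 90.1, 120, 56.9, 23.7 and 39.0 over its 8 time points. PU.1 lay between 4.25 and 11.2. C/EBPβ was thus highest at 48 hpi, and C/EBPα lowest at 24 and 48 hpi. The Cdkl4 bin was named for its C/EBPβ at 0 hpi and later and its C/EBPα at 0 hpi, so its choice enters this pattern. The bin 154 bp upstream of Ptgs2, which encodes the inducible cyclooxygenase of prostaglandin synthesis, had 8 reads at 0 hpi (level 18.7). Its C/EBPβ level was 29.1 at 3, 44.8 at 12, 122 at 24 and 130 at 48 hpi, with intervals of 16.9 to 46.6 and 101 to 165 at the first and the last.

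At the Abhd11 promoter, 122 bp upstream of the TSS of a mitochondrial hydrolase gene, C/EBPβ was 98.1 at 0 hpi, 71.9 at 3, 141 at 12, 202 at 24 and 294 at 48 hpi. C/EBPα stayed between 71 and 151 in all 8 libraries. The bin 3893 bp downstream of the TSS of Kcne3, a potassium channel subunit gene, was among those with the highest later C/EBPβ level. There C/EBPβ was 28.0 at 0, 95.8 at 3, 217 at 12, 291 at 24 and 286 at 48 hpi. C/EBPα at Kcne3 was 38.3 at 0 hpi, between 4.82 and 9.23 from 10 to 60 min, 82.7 at 3, 119 at 12, 75.1 at 24 and 59.1 at 48 hpi. The values at 10 to 60 min, low here and at Ctr9, are from the 3 libraries with reads of 50 bases, so time and sequencer cannot be told apart.

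**Figure D5:**
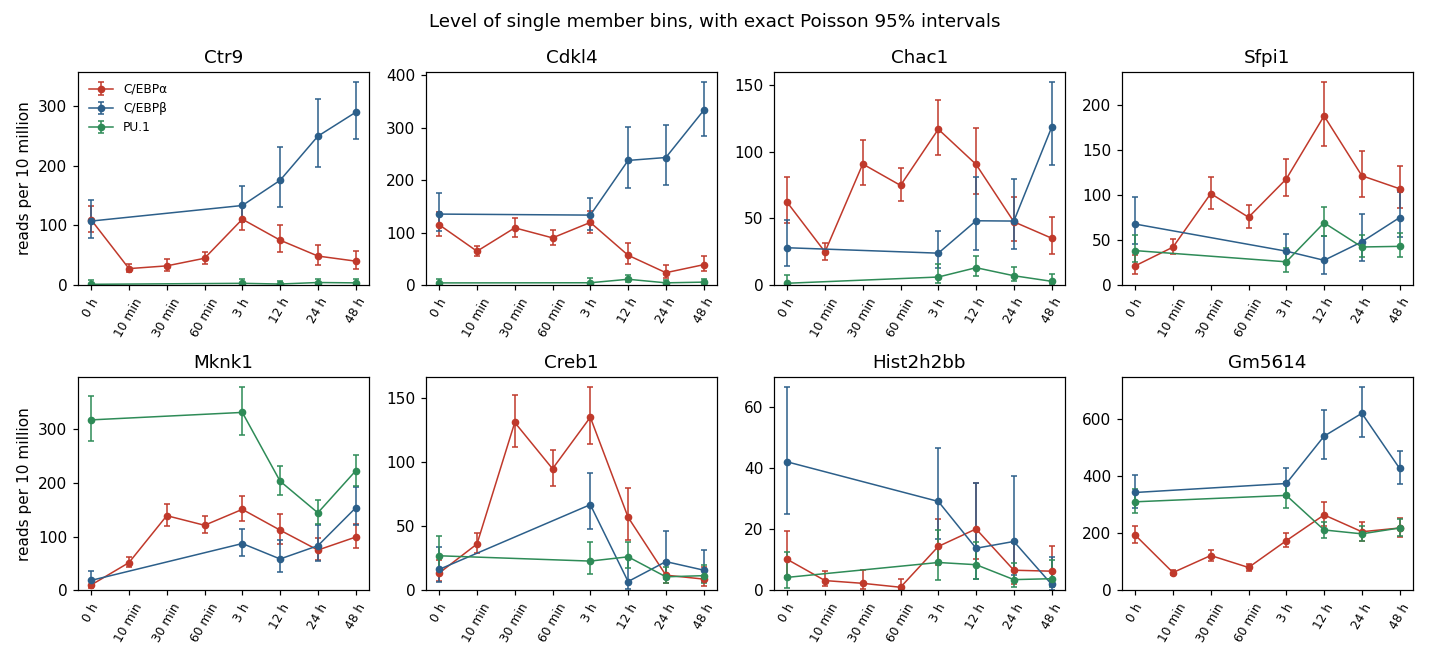
Reads per 10000000 at 8 single member bins over the time course (positions on the x axis are not to scale), for C/EBPα (red), C/EBPβ (blue) and PU.1 (green), with exact Poisson 95% intervals and 1 library per point. C/EBPβ climbs to 290 at Ctr9 and 333 at Cdkl4, falls to 1.97 at Hist2h2bb, and all 3 factors are high at Gm5614.

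The members with the highest PU.1 levels at 0 hpi differed among themselves in C/EBP binding. The Mknk1 bin, in an intron 8451 bp downstream of the TSS of a MAP kinase-interacting kinase gene, had the highest PU.1 level of all members at 0 hpi. PU.1 there was 318 at 0, 332 at 3, 203 at 12, 144 at 24 and 223 at 48 hpi. C/EBPα rose from 10.1 at 0 hpi to 51.8 at 10 min and 139 at 30 min, and was 121 at 60 min, 151 at 3 hpi, 112 at 12, 75.1 at 24 and 99.3 at 48 hpi. C/EBPβ was 18.7, 87.3, 58.5, 83.2 and 154 at its 5 time points. The next PU.1 levels at 0 hpi, 262 to 311, were at bins whose nearest genes were Rpn1, Atp1b3, Msrb2, Irg1 and Gm5614, the last being the bin of narrow strands described above. The Rpn1, Atp1b3 and Msrb2 bins were enriched in all 4 later C/EBPβ libraries. The bin 139294 bp from Irg1 was enriched in none of them and in 1 of 8 C/EBPα libraries.

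Regulators of both lineages had members. The gene Sfpi1 encodes PU.1, and the member bin printed above lies in an intron, 553 bp downstream of the nearest annotated TSS, and held 29 reads at 0 hpi. That TSS is upstream of the one at the other Sfpi1 member described below. The paper places a distal enhancer of the gene, the URE, upstream of its promoter. The printed bin (chr2:90923001-90923200) lies upstream of that other member (chr2:90936801-90937000), on the side where the paper places the URE. Its coordinates were not compared with those of the URE. C/EBPα at the printed bin was 21.4 at 0 hpi, 42.1 at 10 min, 102 at 30 min, 75.2 at 60 min, 118 at 3 hpi, 188 at 12, 121 at 24 and 107 at 48 hpi. C/EBPβ was 67.7, 37.6, 27.6, 48.0 and 74.9. PU.1 itself was 38.3, 25.9, 69.1, 42.3 and 43.0. Another Sfpi1 member (chr2:90936801-90937000), 37 bp upstream of a TSS farther downstream, also holds a C/EBP octamer. It held 17 reads at 0 hpi and was enriched for C/EBPβ in none of the 4 later libraries, where its levels were 15.4, 20.7, 16 and 19.7. C/EBPα at that bin was 3.38 at 0 hpi, 53.9 at 3 hpi and 27.6 at 48 hpi. A bin 71285 bp from the TSS of Cebpb, the gene of C/EBPβ, had C/EBPβ levels of 32.7, 42.8, 110, 131 and 238, and PU.1 levels of 31.2, 95.8, 130, 121 and 129. At a bin 4490 bp downstream of the TSS of Myb, a regulator of progenitor growth, C/EBPβ was 51.4, 92.4, 93.0, 112 and 193, and PU.1 was at most 7.60. The bin 2678 bp upstream of Creb1, the gene of the cyclic AMP response element binding protein, had its highest levels of both factors early. Its C/EBPα level was 13.5 at 0 hpi, 36.1 at 10 min, 131 at 30 min, 94.7 at 60 min and 135 at 3 hpi, then 56.9, 11.9 and 8.80 at 12, 24 and 48 hpi. Its C/EBPβ level was 16.3, 66.7, 6.89, 22.4 and 15.8, with intervals of 47.5 to 91.2 at 3 hpi and 6.80 to 31.1 at 48 hpi.

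Gene groups were described by the members whose nearest gene within 100000 bp was on a list, beside 921 of 21275 protein-coding genes (4.33%) with a member. Of 43 genes of the amino acid and stress response, many of them targets of ATF4, 10 had a member (23.3%, 11.8 to 38.6), and 7 of their 11 member bins held the C/EBP-ATF composite and none a C/EBP octamer. Chac1, a glutathione-degrading enzyme gene, had a bin 265 bp upstream with C/EBPβ levels of 28.0, 24.0, 48.2, 48.0 and 118 and C/EBPα levels of 62.0, 24.9, 90.7, 74.7, 117, 90.4, 47.5 and 35.2. Sars, the gene of seryl-tRNA synthetase, had a bin 961 bp downstream with C/EBPβ levels of 30.4, 49.6, 41.3, 70.4 and 116, while C/EBPα fell from 35.0 at 0 hpi to 8.80 at 48 hpi (23.8 to 49.6 and 3.54 to 18.1). C/EBPβ was enriched at 48 hpi at 9 of the 11 bins, beside 56.9% of all members.

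Immediate early and cyclic AMP target genes had members at 15 of 37 (40.5%, 24.8 to 57.9). Of their 21 bins, 11 were enriched for C/EBPβ at 48 hpi, near the share of all members, 56.9%. Among the 21 was a bin 91153 bp upstream of Klf4, a regulator of myeloid differentiation, with C/EBPβ at 30.4, 24.0, 44.8, 86.4 and 165. Of the 8 AP-1 genes, Fosb and Fosl2 had one. The Fosb bin, 106 bp upstream of the gene, had no C/EBPα enrichment at any time (2.51 to 13.4) and C/EBPβ levels of 30.4, 12.0, 20.7, 32.0 and 65.0. Interleukin and CSF signalling genes had members at 7 of 24 (29.2%, 12.6 to 51.1), Il6ra among them, the interleukin receptor gene whose promoter bin had C/EBPβ levels of 32.7, 20.5, 31, 60.8 and 199. Of 20 PU.1 and myeloid regulators, Myb, Nfe2, Runx1 and Sfpi1 had 11 bins. Of these bins, 7 were enriched for C/EBPβ in all 4 later libraries, beside 38.5% of all members.

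B-lineage genes had members at 8 of 32 (25%, 11.5 to 43.4), among them Dntt, Irf8 and Pou2af1. Of their 10 bins, 1 was enriched for C/EBPβ at 48 hpi, and the median level of 6.84 at 3 hpi was 1.97 at 48 hpi. Their median level at 0 hpi was 16.3, that of 7 reads, and of all members with 7 reads 34.4% were enriched at 48 hpi, so these bins lay at the detection limit. Macrophage and granulocyte effector genes had members at 6 of 56 (10.7%, 4.03 to 21.9). Of their 7 bins, 2 were enriched for C/EBPβ at 48 hpi, both at Ptgs2, beside 56.9% of all members. Their median level at 0 hpi was also 16.3, so the 34.4% of all members with 7 reads is the closer comparison. These bins too lay at the detection limit, and no loss of C/EBPβ is read from them. C/EBP family genes had members at 2 of 6 (Cebpb and Ddit3) and CREB and ATF genes at 3 of 18 (Atf3, Atf7 and Creb1). The length of genome nearest to each gene was not adjusted for.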

How the data were processed

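The authors sequenced ChIP DNA of C10 cells, aligned the reads to mm9 without mismatches (ELAND or Bowtie; the aligner per library is not given in the sources used here), removed identical and non-uniquely aligned tags and deposited where each remaining read lies and on which strand. The deposited lines hold coordinates, and counts of reads per bin were made from them here. Lines without a position (1) and reads on unplaced contigs (up to 14580, PU.1 only) were left out, and 1 read per position and strand was kept. Reads sharing a position made up at most 2.51% of a library.

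Reads were shifted by 75 bp and counted in 200-bp bins from 0. Levels are per 10000000 placed reads. Genes and TSSs came from GENCODE vM1 and sequence from NCBIM37, both of the mm9 build. Motifs were searched as exact matches on both strands within the bin, and overlaps between motifs were allowed. Bins with unknown bases were left out of motif shares, but 1 such gained bin was kept in the shares of single octamers. Shares carry Clopper-Pearson intervals and single bins exact Poisson intervals, all at 95%; these cover counting error only, since reads carried no molecular identifiers. Depth was 2903580 to 24917810 reads per library. The bin rule was tested on simulated data. Named members were, after merging adjacent bins, the 10 with most C/EBPβ reads at 0 hpi, the 8 with the highest mean later C/EBPβ level, the 6 highest for PU.1 and the 6 highest for C/EBPα at 0 hpi, 6 enriched in no other library, and up to 4 per gene list. The members and lists were chosen with earlier results of these data known, and the split by strand distance, by octamer and by histone gene was chosen after seeing the data. Python 3.11.15, numpy 2.4.6, pandas 2.3.3, scipy 1.17.1 and numba 0.67.0 were used.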

Additional observations from a re-analysis of the deposited data

How the results depend on the processing

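Of the values recomputed under other settings, 158 were classed as unchanged, 66 as moved and 3 as changed in sign. The number of members, 1318, was classed as unchanged at 1187 with adjacent bins merged and at 1081 without strand distances below 50 bp. For that number the class was thus wider than counting error. Unless said otherwise, the cause was not tested. With 10 or more reads at 0 hpi there were 399 members, and their median C/EBPβ level was 34.2 at 3 hpi, 44.8 at 12, 64.0 at 24 and 92.6 at 48 hpi. Their median C/EBPα level was 25.9 at 0, 62.9 at 3 and 27.6 at 48 hpi, and that of PU.1 was 9.93 at 0 and 7.64 at 48 hpi. C/EBPβ at 48 hpi was enriched at 87.5%, C/EBPα at 72.2% (0 hpi) and 64.4% (48 hpi), and PU.1 at 30.8% and 29.6%. The log2 ratios of summed reads were 1.20 (C/EBPβ, 48 over 3 hpi), 0.32 (C/EBPα, 48 over 0 hpi) and -0.20 (PU.1, 48 over 0 hpi). A C/EBP octamer was in 50.6%, the C/EBP-ATF composite in 12.8%, and 25.3% lay within 1000 bp of a TSS.

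With 8 times the surroundings there were 641 members, with median C/EBPβ levels of 24.0, 27.6, 41.6 and 65.0 from 3 to 48 hpi and C/EBPα levels of 16.9, 42.2 and 16.3 at 0, 3 and 48 hpi. Enriched shares were 73.0% (C/EBPβ, 48 hpi), 50.2% and 49.9% (C/EBPα, 0 and 48 hpi) and 25.9% (PU.1, 48 hpi), the ratios 1.30, 0.39 and -0.10, and the motif shares 47.4% (octamer) and 11.2% (composite). Leaving out members with a strand distance below 50 bp takes out 146 that were enriched in none of the 17 libraries used for that distance. The values below thus follow in part from the filter itself. The C/EBPβ medians were 20.5 at 3, 28.8 at 24 and 43.3 at 48 hpi, C/EBPα was 35.9 at 3 hpi and PU.1 8.51 at 0 hpi. Enriched shares were then 64.3% (C/EBPβ, 48 hpi), 38.6% and 40.4% (C/EBPα, 0 and 48 hpi) and 25.2% (PU.1, 48 hpi), the ratios 1.23 (C/EBPβ) and 0.47 (C/EBPα), and the octamer share 37.5%. The octamer share of members minus that of gained bins, -3.06 percentage points, changed sign under these 3 settings, to 14.9, 11.7 and 1.78, the last by the strand filter.

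Requiring 7 raw reads in every library, the enriched shares were 61.0% (C/EBPβ, 48 hpi), 58.7% and 52% (C/EBPα, 0 and 48 hpi), and 33.5% and 32.8% (PU.1, 0 and 48 hpi). Thinned to the smallest library, they were 39.98% (C/EBPα, 48 hpi) and 25.3% (PU.1, 48 hpi), with a PU.1 median of 6.89. Scaled to reads outside enriched bins, the PU.1 median at 0 hpi was 8.02 and the C/EBPβ ratio 1.18. Members with the strand order of a bound site gave a C/EBPβ ratio of 1.15, and bins moved by 100 bp a PU.1 ratio of -0.22. With 50 bp added on each side the motif shares were 41.2% (octamer), 11.5% (composite) and 12.5% (EBF1). Within 500 bp of a TSS lay 16.3% of members.

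Each time point had 1 library, so no paired analysis was possible because no replicate exists, and differences between times carry counting error only. The 0 hpi C/EBPβ library is shallow, and a bin of 7 reads has a wide counting error. No input library was used, so bins high in every factor cannot be told apart from binding by level alone.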

Other observations

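Replication-dependent histone genes, which supply histones during DNA synthesis, were picked as a group after their values had been seen. Of 67 annotated, 19 had a member (28.4%, 18.0 to 40.7), with 27 bins, of which 25 lay within 1000 bp of a TSS and none held a C/EBP octamer. Over these 25 bins the median C/EBPβ level was 13.7 at 3, 10.3 at 12, 6.40 at 24 and 7.88 at 48 hpi, and the summed reads were lower at 48 than at 3 hpi by a log2 ratio of -0.34 (-0.63 to -0.05), with 5 bins higher and 20 lower. At Hist2h2bb, in its coding exon, C/EBPβ was 42.0 at 0 hpi, then 29.1, 13.8, 16 and 1.97. PU.1 was enriched at 0 of 25 bins at 0 hpi, beside 25.4% of all members and 0.213% of all bins. That count is near the share of all bins, and nothing is concluded from it. Of the 27 bins, 13 had a strand distance below 50 bp, negative at some, with Hist2h4 and Hist4h4 among them. Of the 13, 6 were enriched in no other library. These genes have near-identical copies, and whether reads were split among them was not tested.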
